A study of Mus musculus with 33 samples.

Results

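The primordial germ cell genes are 10 genes, *Prdm1*, *Tfap2c*, *Kit*, *Dnd1*, *Nanos3*, *Dazl*, *Ddx4*, *Mael*, *Ifitm1* and *Ifitm3*, taken by symbol from the 16336 genes of the table, and all 10 were listed. RNA-seq was run on E14Tg2a, a wild-type mouse embryonic stem (ES) cell line of the 129/Ola strain, and on ΔK9.1 and ΔK9.2, each a single clone derived from E14Tg2a that is homozygous for a deletion of the region marked by H3K9me3 between the enhancer and the promoter of *Nanog*. Undifferentiated cells grown in serum with LIF on gelatine (day 0) were compared with embryoid body (EB) differentiation in serum without LIF, sampled on days 4, 6 and 8. Day 4 cells were floating aggregates, which were then put back on gelatine at low density, so days 6 and 8 are attached outgrowths, and the time after day 4 cannot be told apart from this change of culture. This gives 12 groups of line and day and 33 libraries. Each group had 3 replicates, except day 6 with 2 (numbers 2 and 3). No germ cells were sorted, no reporter was used, and each library is RNA from a whole culture, so fewer cells of a type and less RNA per cell cannot be told apart. Values are TPM, which are scaled for transcript length, and fold changes are differences of log2(TPM + 1), which understates the change of low genes.

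Primordial germ cells are the embryonic precursors of eggs and sperm. In the mouse they arise from the epiblast under BMP and WNT signals, which switch on *Prdm1*, *Prdm14* and *Tfap2c*. They then migrate to the gonad, and genes such as *Dazl*, *Ddx4* and *Mael* follow as DNA methylation is lost from their promoters. Several genes of this group are also transcribed in ES cells, where the germ cell genes are held down by DNA methylation and by repressor complexes that read short promoter motifs.

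All 10 genes were expressed in undifferentiated E14Tg2a, at means from 2.81 TPM (*Nanos3*) to 628 TPM (*Ifitm1*). In 9 of the 10 the highest of the 12 group means was on day 0. The exception was *Mael*, which was highest on day 4 of ΔK9.2 at 27.5 TPM. No gene rose above its day 0 level past the threshold on any later day in any line. The nearest to a call was *Mael* on day 4 of ΔK9.1 (0.81, limma adjusted p = 0.0732), which passed after scaling by the median ratio (1.06, adjusted p = 0.0301) and without replicate 1 of day 0 (1.07) or replicate 2 of day 4 (1.11). When the 12 group means of a gene were put in order, most of the 11 pairs of neighbours had overlapping replicates. Non-overlapping neighbours numbered 2 for *Dnd1*, 1 each for *Kit*, *Dazl*, *Ddx4* and *Mael*, and 0 for the other 5 genes. Such neighbours were not counted for other genes, so the numbers cannot be read as a trait of these 10. The ratio of the highest to the lowest group mean ran from 2.90 for *Ifitm3* to 25.1 for *Dazl* and 28.6 for *Mael*.

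The listed TPM summed to between 994284 and 998266 per library, and between 12903 and 13905 genes reached 1 TPM. Read numbers cannot be had back from TPM, so the exact depth of each library is unknown. *Nanog*, the gene next to the deletion, averaged 26.7 TPM in E14Tg2a on day 8 and 98.9 and 105 TPM in ΔK9.1 and ΔK9.2. Replicate 3 of ΔK9.1 on day 8 stood apart, with 177 TPM of *Nanog* against 70.6 and 49.3 TPM in replicates 1 and 2, and the 10 genes did not move one way in it: within the clone that day *Dnd1*, *Dazl*, *Ddx4*, *Mael* and *Ifitm3* were highest there, *Prdm1*, *Tfap2c*, *Kit* and *Nanos3* were lowest there, and *Ifitm1* lay between the other libraries. The study describes independent assays with the lines differentiated side by side, and p-values measure the spread between these libraries.

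**Figure D1:**
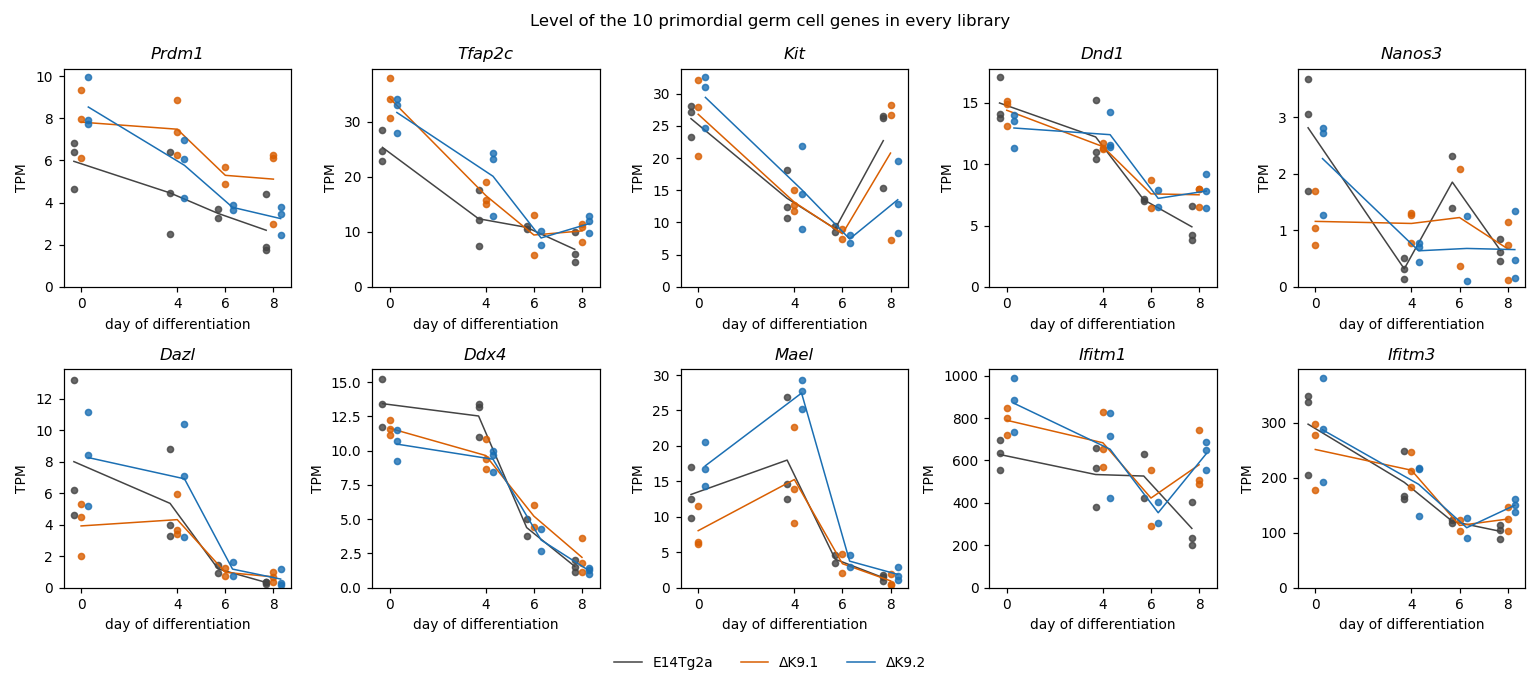
TPM of each gene (vertical axes, linear from 0) against the day of differentiation. Points are single libraries, lines join the means of each line of cells, and points of the 3 lines are shifted sideways. *Dazl*, *Ddx4* and *Mael* drop to near 0 by day 8, *Kit* dips on day 6, and *Ifitm1* on day 8 lies between 202 and 402 TPM in E14Tg2a and between 488 and 741 TPM in the clones.

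The first question was how the genes change as the cells leave the undifferentiated state. A call needed a limma adjusted p below 0.05 and a log2 fold change beyond 1 in either direction. In E14Tg2a 9 of the 10 genes were called lower than on day 0 on at least 1 later day, where 31.8% of all 16336 genes were called in either direction. In ΔK9.1 6 of 10 were called, against 24.4% of all genes, and in ΔK9.2 9 of 10, against 27.6%. All 24 calls, counted as gene and line, were decreases. The median log2 fold change of the 10 genes on day 8 against day 0 was -1.48 in E14Tg2a, where that of all genes was 0.05. In ΔK9.1 and ΔK9.2 the medians were -0.92 and -1.15, beside 0.005 and -0.02 for all genes.

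**Figure D2:**
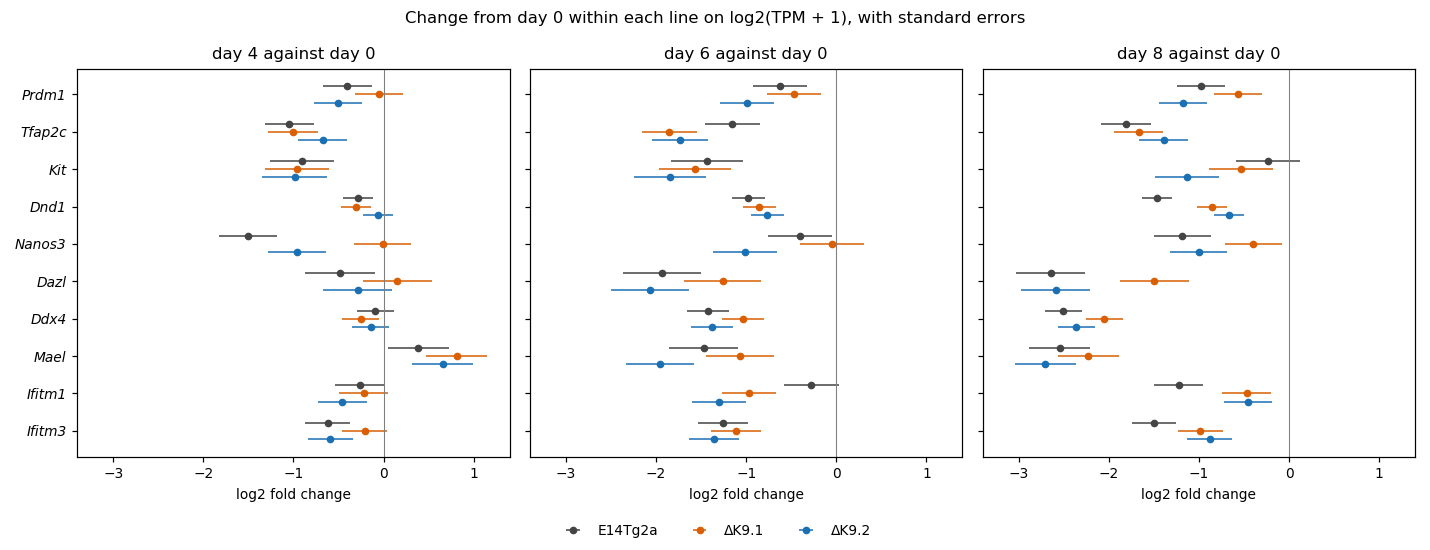
Log2 fold change against day 0 (horizontal axis) on days 4, 6 and 8 for each gene and line, as limma estimates with standard errors. On day 8 all points lie left of 0, with *Dazl*, *Ddx4* and *Mael* farthest in E14Tg2a and *Kit* of E14Tg2a nearest to 0 at -0.23.

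*Prdm1* and *Tfap2c* encode transcription factors that specify the germ line. *Tfap2c* lies on chromosome 2 of mm10 from 172549593 to 172558622 and *Prdm1* on chromosome 10 from 44437177 to 44528501. *Tfap2c* stood at 24.6, 28.4 and 22.9 TPM in undifferentiated E14Tg2a and at 9.95, 5.88 and 4.57 TPM on day 8. In ΔK9.1 it went from 34.1, 38.0 and 30.7 TPM to 11.5, 10.8 and 8.13 TPM, and in ΔK9.2 from between 27.9 and 34.1 TPM to 12.8, 11.9 and 9.69 TPM. The days did not overlap in any line. The log2 fold change by limma was -1.81 in E14Tg2a (standard error 0.27, adjusted p = 3.71e-06), -1.67 in ΔK9.1 (0.27, adjusted p = 1.73e-05) and -1.39 in ΔK9.2 (0.27, adjusted p = 0.00014). In E14Tg2a it was already lower on day 4 by limma (-1.05, standard error 0.27, adjusted p = 0.00591), a call that was lost without replicate 3 of day 4 (-0.75, adjusted p = 0.0645) and that fell under the fold threshold without replicate 2 of day 0 (-0.96) and after scaling by the median ratio (-0.98).

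*Prdm1* was low. Undifferentiated E14Tg2a had 6.39, 6.84 and 4.65 TPM, and its day 8 libraries had 4.40, 1.89 and 1.76 TPM. The limma log2 fold change of -0.97 (standard error 0.27, adjusted p = 0.00308) missed the fold threshold, and it passed without replicate 1 of day 8 (-1.29) or replicate 3 of day 0 (-1.12), with a pseudocount of 0.1 (-1.23) and after scaling by the median ratio (-1.03). In ΔK9.2 *Prdm1* fell from 7.72, 9.96 and 7.94 TPM to 3.79, 2.47 and 3.46 TPM (limma, -1.18, standard error 0.27, adjusted p = 0.000692). In ΔK9.1 the change was -0.56 (standard error 0.27, limma adjusted p = 0.084). Over the 12 group means, the gene most like *Tfap2c* was *Prdm14*, the third of the specification factors, with a Pearson correlation of 0.98 of log2(TPM + 1), followed by *Gm10863*. *Prdm1* was most like *Stk38* and *Prdm16* (0.95 for each). These 12 points share the course of differentiation.

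*Kit*, on chromosome 5 from 75574916 to 75656722, encodes the receptor for stem cell factor, which migrating germ cells need and which blood progenitors and other cells also carry. In E14Tg2a it was at 27.1, 28.1 and 23.2 TPM on day 0, at 8.57 and 9.48 TPM on day 6, and at 26.5, 26.3 and 15.3 TPM on day 8. The day 6 libraries lay under all those of days 0 and 8. Limma gave -1.43 for day 6 against day 0 (standard error 0.40, adjusted p = 0.00557) and 1.202 for day 8 against day 6 (standard error 0.40, adjusted p = 0.0275). Both calls rest on few libraries: the first was lost without replicate 2 of day 6 (adjusted p = 0.0514), and the second without replicate 1 or 2 of day 8 or either library of day 6 (adjusted p from 0.0721 to 0.145, values from 1.07 to 1.27).

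On day 8 ΔK9.1 had 26.8, 28.3 and 7.24 TPM of *Kit* and ΔK9.2 had 12.8, 19.5 and 8.29 TPM, so replicate 3 was lowest in all 3 lines. Day 8 against day 6 in ΔK9.1 was 1.03 by limma (standard error 0.40, adjusted p = 0.0765), and 1.63 (adjusted p = 0.000946) without replicate 3 of day 8. In ΔK9.2 *Kit* on day 8 was below its own day 0 (-1.13, standard error 0.36, limma adjusted p = 0.00974), and this was lost without replicate 3 of day 8 (-0.85, adjusted p = 0.0759). In replicates 1, 2 and 3 of day 8 the 11 genes of the blood and endothelium list summed to 1133, 4671 and 1074 TPM in E14Tg2a, to 160.3, 1963 and 64.9 TPM for ΔK9.1 and to 91.6, 299 and 94.3 TPM for ΔK9.2. Replicate 2 had the highest sum in each line, and replicate 3 the lowest in E14Tg2a and ΔK9.1 but not in ΔK9.2. Of these 11, 7 were called lower in the clones. Their part in the *Kit* values was not tested. The genes most like *Kit* over the 12 group means were *St5* (0.98) and *Nid1* (0.97).

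*Dnd1* and *Nanos3* encode RNA-binding proteins that keep migrating germ cells alive. *Dnd1* went from 17.1, 14.1 and 13.8 TPM to 6.60, 3.85 and 4.23 TPM between days 0 and 8 of E14Tg2a, with no overlap, and fell by 1.46 on the log2 scale (standard error 0.17, limma adjusted p = 4.96e-08). The decreases were smaller in the clones, -0.86 in ΔK9.1 and -0.67 in ΔK9.2 (standard error 0.17 for each, limma adjusted p = 0.00013 and 0.00155), and neither passed the fold threshold. The day 8 libraries of ΔK9.1 had 8.01, 6.49 and 8.02 TPM and those of ΔK9.2 had 9.18, 7.82 and 6.45 TPM. Replicate 1 of E14Tg2a, at 6.60 TPM, lay just above the lowest library of each clone. Within each replicate number both clones were above E14Tg2a on day 8. The likest genes of *Dnd1* were *Shld2* and *Klf15* (0.98 for each).

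*Nanos3*, on chromosome 8 from 84173731 to 84185217, was the lowest of the genes on day 0. In E14Tg2a it was at 1.70, 3.68 and 3.06 TPM on day 0, at 0.511, 0.313 and 0.129 TPM on day 4, at 1.39 and 2.32 TPM on day 6 and at 0.852, 0.463 and 0.619 TPM on day 8. Limma called the decrease to day 4 (-1.51, standard error 0.32, adjusted p = 0.00102) and the difference of day 6 from day 4 (1.10, standard error 0.36, adjusted p = 0.0257). The second was lost without either library of day 6 or without replicate 3 of day 4 (adjusted p from 0.0682 to 0.204, values from 0.87 to 1.34). In ΔK9.1 no later day was called (-0.01, -0.05 and -0.39 on days 4, 6 and 8, with standard errors of 0.32, 0.36 and 0.32), and its day 0 libraries, at 0.745, 1.69 and 1.04 TPM, did not rise above the lowest of E14Tg2a. In ΔK9.2 the day 8 difference was -1.003 (standard error 0.32, limma adjusted p = 0.0106), which is at the fold threshold and was -0.98 after scaling by the median ratio and from -0.77 to -0.95 without replicate 2 or 3 of either day. These values lie near 1 TPM. *Madd* (0.89) and *Gm3604* (0.85) were the genes most like it.

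*Dazl* and *Ddx4* encode germline RNA-binding and helicase proteins, and *Mael* a protein of the piRNA pathway that silences transposons. RefSeq promoter entries were matched for 8 of the 10 genes, and *Tfap2c* and *Dnd1* have no entry. The 250 bases before the start were searched on both strands for CACGTG, the E-box read by MGA and MAX, and for TCCCGC, the motif of E2F6, both of them parts of a repressor complex of germline genes in ES cells. CACGTG reads the same on both strands, and the matches of the 2 motifs did not overlap. Of 32536 distinct promoter windows, 6.04% held CACGTG, 17.0% held TCCCGC and 1.46% held both. The windows of *Ddx4* and *Mael* held 1 of each, that of *Dazl* held neither, and both entries of *Kit* held TCCCGC at 2 places. *Prdm1*, *Nanos3*, *Ifitm1* and *Ifitm3* had neither. A match is only a run of letters, and no binding was measured.

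The windows of the 3 later germline genes are shown because these genes fell together, from GRCm38.p6 (the sequence of mm10), 5′ to 3′ on the minus strand, with matches in capitals (GCGGGA is TCCCGC on the other strand). Bases inside an exon annotated by GENCODE M21 are left out, and for *Ddx4*, whose matches lie inside an annotated exon, at 29 (CACGTG) and 136 (TCCCGC) bases before the RefSeq start, only 26 bases around each match are given. The positions are chr17:50293637-50293870 for *Dazl*, chr1:166238748-166238994 for *Mael*, and chr13:112652431-112652456 and chr13:112652324-112652349 for the *Ddx4* sites.
Dazl: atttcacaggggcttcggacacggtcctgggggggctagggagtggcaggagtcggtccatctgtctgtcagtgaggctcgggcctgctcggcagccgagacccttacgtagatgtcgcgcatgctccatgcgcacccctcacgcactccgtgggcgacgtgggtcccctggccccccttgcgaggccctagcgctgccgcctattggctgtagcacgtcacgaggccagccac
Mael: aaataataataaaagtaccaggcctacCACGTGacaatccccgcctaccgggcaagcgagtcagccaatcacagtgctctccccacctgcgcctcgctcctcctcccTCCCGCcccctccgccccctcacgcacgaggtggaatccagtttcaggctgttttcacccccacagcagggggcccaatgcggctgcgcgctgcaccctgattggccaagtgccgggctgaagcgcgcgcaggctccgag
Ddx4 TCCCGC site: cgtccatgggGCGGGAagtcgcgcgc
Ddx4 CACGTG site: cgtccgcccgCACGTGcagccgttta
In the 250 bases before the start there were 20 CpG in *Dazl*, 31 in *Ddx4* and 18 in *Mael*, where the median of all windows was 6. *Kit* had 17 and 18 in its entries and *Prdm1* had 15, while *Nanos3* and *Ifitm3* had 3 and *Ifitm1* had 4.

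The 3 genes were expressed on days 0 and 4 and were called lower by day 6 in all 3 lines. In E14Tg2a *Ddx4* was at 11.7, 15.2 and 13.4 TPM on day 0, at 10.998, 13.2 and 13.4 TPM on day 4, at 5.03 and 3.73 TPM on day 6 and at 1.13, 2.01 and 1.52 TPM on day 8. Day 4 overlapped day 0, and days 6 and 8 lay apart from it and from each other. The limma log2 fold change against day 0 was -0.09 on day 4 (standard error 0.21, adjusted p = 0.799), -1.43 on day 6 (0.23, adjusted p = 2.27e-05) and -2.51 on day 8 (0.21, adjusted p = 2.22e-10). ΔK9.1 and ΔK9.2 had day 8 values of -2.05 and -2.36 (standard error 0.21 for each, limma adjusted p = 1.32e-08 and 9.39e-10). The day 6 calls in ΔK9.1 were the weakest, with *Dazl* at -1.26, *Ddx4* at -1.03 and *Mael* at -1.07 (limma adjusted p = 0.0267, 0.00122 and 0.0324). All 3 were lost without replicate 2 of day 6 (-1.08, -0.84 and -0.60). *Dazl* was also lost without its other day 6 library or replicate 1 or 2 of day 0 (limma adjusted p from 0.055 to 0.107), *Ddx4* after scaling by the median ratio (-0.93), and *Mael* without replicate 1 of day 0 (-0.81), after scaling by the median ratio (-0.97), with the replicate block (-0.996) and with only the libraries of those days (adjusted p = 0.0881).

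*Dazl* went from 13.2, 6.19 and 4.598 TPM in E14Tg2a on day 0 to 0.251, 0.387 and 0.347 TPM on day 8. In ΔK9.1 it went from 5.29, 4.47 and 1.99 TPM to 0.698, 0.341 and 1.02 TPM, and in ΔK9.2 from 11.2, 8.44 and 5.17 TPM to 0.152, 0.282 and 1.205 TPM. On day 0 replicate 1 was highest and replicate 3 lowest in each line. *Dazl* fell by 2.64 on the log2 scale in E14Tg2a, by 1.49 in ΔK9.1 and by 2.59 in ΔK9.2 (standard error 0.38 for each, limma adjusted p = 2.04e-06, 0.0022 and 3.82e-06).

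*Mael* was at 17.1, 9.83 and 12.5 TPM on day 0 in E14Tg2a, at 26.9, 12.5 and 14.6 TPM on day 4 and at 0.907, 1.84 and 1.45 TPM on day 8. Days 0 and 4 overlapped (limma, 0.38, standard error 0.34, adjusted p = 0.44). In ΔK9.2 day 4, at 29.3, 27.8 and 25.2 TPM, lay above day 0, at 20.5, 14.3 and 16.8 TPM, without passing the test (0.66, standard error 0.34, limma adjusted p = 0.143). From day 0 to day 8 *Mael* changed by -2.55 (E14Tg2a), -2.23 (ΔK9.1) and -2.70 (ΔK9.2) on the log2 scale (standard error 0.34 for each, limma adjusted p = 5.37e-07, 6.09e-06 and 3.11e-07). Over the 12 group means *Dazl* correlated with *Mael* at 0.95 and with *Ddx4* at 0.93. The genes most like *Dazl* were *Hormad1* and *Mov10l1* (0.99 for each), a meiotic chromosome axis protein and a piRNA helicase. *Ddx4* was most like *Zfp982* and *Dppa4* (0.99 for each), and *Mael* most like *Kndc1* and *4930447C04Rik* (0.98 for each).

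Of a list of 30 later germline and piRNA genes, 24 were in the table. In E14Tg2a 19 of 24 were called lower on day 8 than on day 0 and 0 higher, with a median log2 fold change of -1.89 beside 0.05 for all genes. In ΔK9.1 18 were called lower and 1 higher, and in ΔK9.2 19 lower and 1 higher, with *Tdrkh* as the gene called higher in both. The share of all tested genes called lower between these days was 11% for E14Tg2a, 10% for ΔK9.1 and 11.3% for ΔK9.2. Each of these genes reached 1 TPM in at least 1 group mean. On day 0 itself 23 of the 24 did so in at least 1 line, as did 14504 of all 16336 genes. The 24 are thus mostly genes already expressed on day 0, which leaves room for decreases. Whether other genes of like level on day 0 fell as often was not tested. The summed level of the 24 genes went from between 330.5 and 414 TPM to between 67.6 and 86.5 TPM in E14Tg2a. None of the 15 listed repressors of germline genes, among them *E2f6*, *Mga*, *Dnmt1* and *Setdb1*, was called between the clones and E14Tg2a on day 8, and in E14Tg2a 3 of the 15 were called lower on day 8 than on day 0, beside the 11% of all genes. On day 0, at the lower fold threshold used there, 4 of the 15 were called in ΔK9.1 against E14Tg2a, beside 14.8% of all genes, *Mga* (0.61) and *Setdb1* (0.55) higher and *Trim28* (-0.33) and *Dnmt3a* (-0.56) lower (limma adjusted p from 0.00808 to 0.0426). In ΔK9.2 0 of the 15 were called on day 0, beside 0.0827% of all genes.

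**Figure D3:**
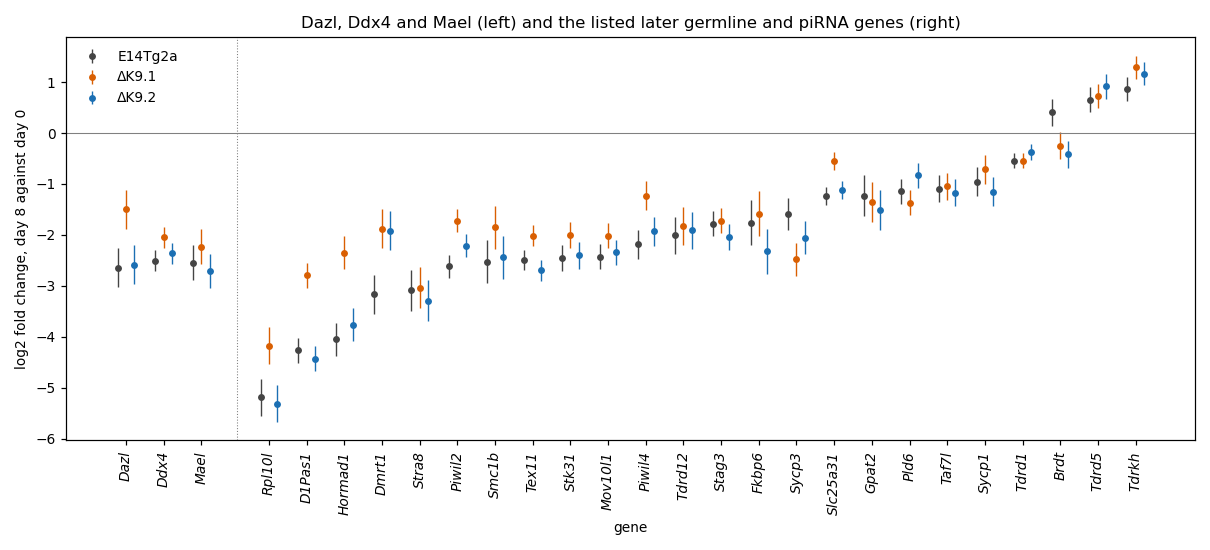
Log2 fold change of day 8 against day 0 (vertical axis) with standard errors for *Dazl*, *Ddx4* and *Mael* and, right of the dotted line, for the 24 listed later germline and piRNA genes in order of their change in E14Tg2a. Most points lie below 0 in all 3 lines, and *Tdrd5* and *Tdrkh* lie above it.

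*Ifitm1* and *Ifitm3* encode small interferon-induced membrane proteins that were among the first surface markers of early germ cells, and both are also made by ES cells. They lie on chromosome 7, *Ifitm1* from 140967221 to 140969825 and *Ifitm3* from 141009586 to 141010770. Of the distinct 50-base stretches of their transcripts, 5.02% in *Ifitm1* and 10.02% in *Ifitm3* also occur in transcripts of other genes, including each other, so a small part of their reads could be split between them. For *Dnd1* it was 0.285%, shared with its pseudogene, and for the other 7 genes 0. Per length, both genes were far above the rest: on day 0 in E14Tg2a *Ifitm1* exceeded 98.7% and *Ifitm3* 97.3% of all listed genes. *Dazl*, by contrast, exceeded 46.7% on day 0 and 7.39% on day 8.

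E14Tg2a had 206, 338 and 349 TPM of *Ifitm3* on day 0 and 114, 106 and 87.9 TPM on day 8, a decrease called at -1.497 (standard error 0.25, limma adjusted p = 1.28e-05). ΔK9.1 and ΔK9.2 had day 8 differences of -0.99 and -0.88 (standard error 0.25 for each, limma adjusted p = 0.00184 and 0.00439), under the fold threshold. On day 6 it was below day 0 in all 3 lines (-1.26, -1.11 and -1.35, limma adjusted p from 0.000364 to 0.00321), and the call in ΔK9.1 was lost without replicate 2 of day 6 (adjusted p = 0.0577) and fell just under the fold threshold without replicate 3 of day 0 (-0.97) and after scaling by the median ratio (-0.9997). The day 8 difference passed the fold threshold in ΔK9.1 without replicate 1 of day 0 (-1.21) or 3 of day 8 (-1.11), and in ΔK9.2 without replicate 1 of day 0 (-1.14). Its likest genes were *Gm1070* (0.98) and *Gstp3* (0.97), while the 2 most like *Ifitm1* reached 0.89 (*Idh3g* and *Dph6*).

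In E14Tg2a *Ifitm1* was at 553, 698 and 634 TPM on day 0, at 632 and 421 TPM on day 6 and at 402, 234 and 202 TPM on day 8, a decrease from day 0 of 1.23 on the log2 scale (standard error 0.27, limma adjusted p = 0.000392). In ΔK9.1 it was at 555 and 290.2 TPM on day 6 and at 741, 488 and 509 TPM on day 8. In ΔK9.2 it was at 403 and 303 TPM on day 6 and at 651, 689 and 555 TPM on day 8. Limma called the decrease to day 6 in ΔK9.2 (-1.30, standard error 0.30, adjusted p = 0.00126). The day 6 value of ΔK9.1 was -0.97 (standard error 0.30, limma adjusted p = 0.0158), under the fold threshold, and it passed that threshold without replicate 2 of day 6 (-1.44) or replicate 3 of day 0 (-1.04). On day 8 the clones were at -0.47 and -0.46 against their own day 0 (standard error 0.27 for each, limma adjusted p = 0.156 and 0.166). Day 8 against day 6 was -0.95 in E14Tg2a (limma adjusted p = 0.0228), and it passed the fold threshold when libraries were paired by replicate number (the replicate block; -1.03, limma adjusted p = 0.00276), after scaling by the median ratio (-1.03) and without replicate 1 of day 8 or 3 of day 6 (-1.24 for each). In ΔK9.1 and ΔK9.2 it was 0.50 and 0.85 (standard error 0.30 for each, limma adjusted p = 0.274 and 0.0629).

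The second question was whether the clones differ from E14Tg2a on each day. On day 8 *Ifitm1* was called higher, with all 6 clone libraries above all 3 of E14Tg2a. E14Tg2a averaged 279 ± 107 TPM, ΔK9.1 579.6 ± 141 TPM and ΔK9.2 632 ± 69.3 TPM (SD, n = 3 each). The limma log2 fold change of the mean of the clones was 1.16 (standard error 0.23, adjusted p = 0.00108), and it was 1.09 in ΔK9.1 (adjusted p = 0.0101) and 1.23 in ΔK9.2 (adjusted p = 0.00281) alone. It was the only one of the 10 genes called on day 8, where 4.24% of all genes were called. Non-overlap of the 6 clone libraries with the 3 of E14Tg2a on day 8, in either direction, held for 13.4% of all genes and for 1 of the 10. Without replicate 3 of E14Tg2a, the lowest library, the value was 0.96 (limma adjusted p = 0.0159) and under the fold threshold. ΔK9.1 alone was no longer called without replicate 2 or 3 of E14Tg2a or its own replicate 1 (limma adjusted p from 0.0644 to 0.0677), or with only the day 8 libraries in the fit (0.0826).

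*Ifitm3* was not called. Beside the E14Tg2a values given above, its day 8 libraries had 124, 103 and 148 TPM for ΔK9.1 and 138, 151 and 161 TPM for ΔK9.2 (limma, mean of the clones 0.41, standard error 0.21, adjusted p = 0.192). The TPM ratio of *Ifitm1* to *Ifitm3* in the same libraries was 3.53, 2.22 and 2.30 for E14Tg2a. It was 5.97, 4.75 and 3.45 for ΔK9.1, while ΔK9.2 had 4.73, 4.57 and 3.44. The range of E14Tg2a reached just into those of the clones, while within each replicate number both clones had a higher ratio than E14Tg2a. Of the 6 *Ifitm* genes listed, *Ifitm1* was the only one called on day 8, and the median of the 6 was 0.39. *Ifitm2*, another abundant member of the family, had means of 642 ± 63.5, 844 ± 243 and 845 ± 189 TPM in E14Tg2a, ΔK9.1 and ΔK9.2 (SD, n = 3 each).

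The other 9 genes were not called on day 8. *Dnd1* was higher by 0.57 (standard error 0.14, limma adjusted p = 0.00622), under the fold threshold of 1. *Tfap2c* was at 0.64 (standard error 0.24, limma adjusted p = 0.0562), and in ΔK9.2 alone at 0.73, or 1.002 and called without replicate 1 of E14Tg2a (limma adjusted p = 0.0152). *Prdm1* was at 0.50 (0.23, limma adjusted p = 0.133). *Prdm1* in ΔK9.1 alone, at 6.10, 6.27 and 2.97 TPM against 4.40, 1.89 and 1.76 TPM, was at 0.75 (limma adjusted p = 0.0714), and it was called without replicate 1 of E14Tg2a (1.06, adjusted p = 0.00939) or its own replicate 3 (1.03, adjusted p = 0.0256). For *Dazl*, *Ddx4* and *Mael* the values were 0.24, 0.04 and -0.06, with standard errors of 0.33, 0.18 and 0.29. *Kit* was at -0.51 (standard error 0.31, limma adjusted p = 0.264). With the replicate block the limma adjusted p was 0.00088 for *Dnd1*, 0.0041 for *Tfap2c*, 0.0271 for *Prdm1*, 0.0191 for *Kit* and 0.0334 for *Ifitm3*. These genes stayed under the fold threshold, which alone kept them from a call under the block. The median of the 10 genes was 0.33, where that of all genes was -0.004.

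**Figure D4:**
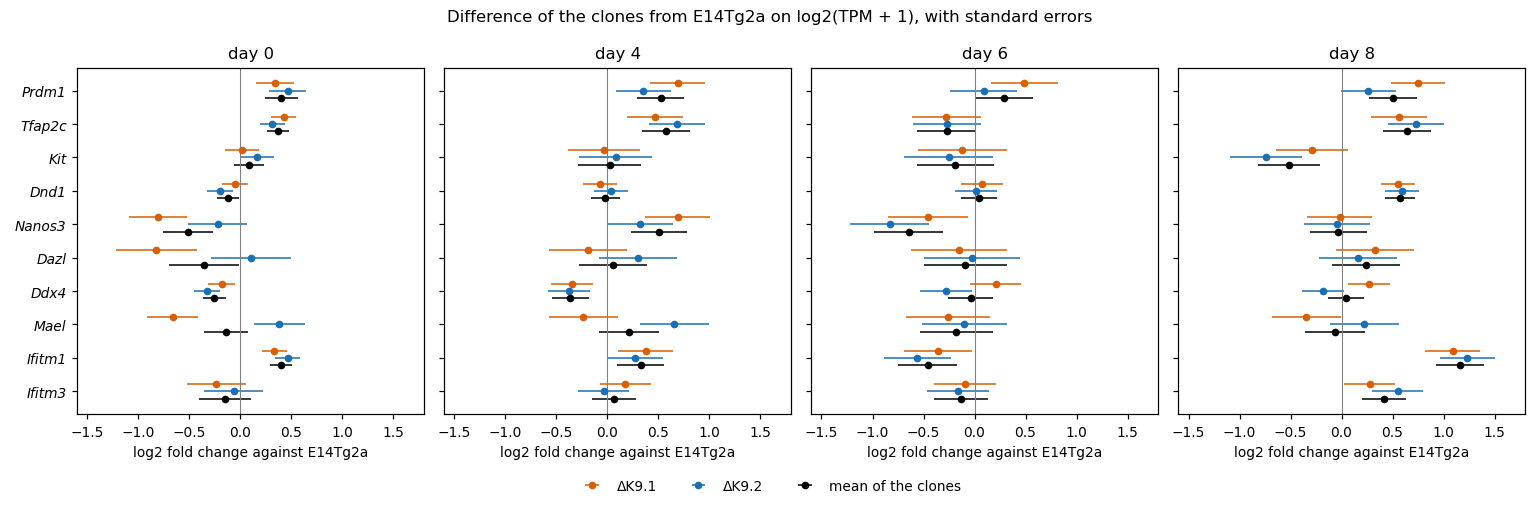
Log2 fold change of ΔK9.1, ΔK9.2 and their mean against E14Tg2a (horizontal axis) on each day, with limma standard errors. On day 8 *Ifitm1* lies above 1 in both clones, and on day 0 *Nanos3*, *Dazl* and *Mael* lie below 0 in ΔK9.1, with *Dazl* (0.10) and *Mael* (0.38) above 0 in ΔK9.2.

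Markers of several cell types moved with the line on day 8, where 4.24% of all genes were called in either direction. Of the early germ cell network, which is shared with ES cells, 5 of 12 genes were called higher in the clones and 0 lower, led by *Nanog* (1.79), *Pou5f1* (1.52), *Sox2* (1.41) and *Zfp42* (1.36). *Prdm14*, the other specification factor, was at 0.65 (standard error 0.23, limma adjusted p = 0.0451), under the fold threshold. Of 9 primitive streak and mesoderm genes 5 were called higher, among them *T* (2.70), which is also the only gene of the BMP and WNT induction list that was called, *Fgf8* (2.33), *Eomes* (1.72) and *Mesp1* (1.72). On day 6 the direction was opposite, with 2 of the 9 called lower and 0 higher, beside 1.62% of all genes. In E14Tg2a the 9 summed to between 674 and 746 TPM on day 6 and between 15.8 and 169.6 TPM on day 8. Of 8 naive pluripotency genes 3 were called higher on day 8, *Klf2* (1.29), *Esrrb* (1.25) and *Nr0b1* (1.02). Of 12 visceral and primitive endoderm genes 7 were called lower, led by *Ttr* (-4.81), *Afp* (-4.40), *Apoa1* (-3.62) and *Dab2* (-2.57). The 12 summed to between 406 and 551 TPM in E14Tg2a and between 47.1 and 183 TPM in the clones. The 7 of 11 blood and endothelium genes that were called lower were led by *Hbb-bh1* (-4.78), *Hba-x* (-4.49), *Gata1* (-1.90) and *Cdh5* (-1.89). *Pecam1* (-1.28), which is also counted among the blood and endothelium genes, and *Itgb3* (-1.15) were lower among 10 genes of migration and survival. *Foxd3* (1.001) was higher among 7 neural genes, and none of 6 listed trophoblast genes was called. Among later germline genes *Rpl10l* (1.22) and *Tdrd12* (1.13) were higher. The part of these markers in the *Ifitm1* and *Dnd1* values was not tested.

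For undifferentiated cells the fold threshold was 0.3 on the log2 scale, at the same adjusted p. In ΔK9.1 1 of the 10 genes was called, where 14.8% of 14504 genes tested were. This was *Tfap2c*, at 34.1, 38.0 and 30.7 TPM against 24.6, 28.4 and 22.9 TPM in E14Tg2a, with no overlap (limma, 0.42, standard error 0.12, adjusted p = 0.0444). The call was lost without any 1 of the 6 libraries compared (limma adjusted p from 0.0517 to 0.159, values from 0.35 to 0.505), and after scaling by the median ratio (0.34, adjusted p = 0.0738). *Nanos3* (-0.81), *Dazl* (-0.82) and *Mael* (-0.66) were not called (limma adjusted p = 0.0849, 0.186 and 0.104). With the replicate block all 3 were (limma adjusted p = 0.00883, 0.00893 and 0.00527), which gives 4 of 10 genes, where 25.3% of all genes were called under the block. In ΔK9.2 limma called 0 of the 10, where 0.0827% of genes tested were called, and 4 had an unadjusted p under 0.05 (*Prdm1*, *Tfap2c*, *Ddx4* and *Ifitm1*), beside 9.48% of all genes.

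*Mael* was the gene that separated the clones most on day 0. It was at 11.5, 6.16 and 6.42 TPM in ΔK9.1, at 20.5, 14.3 and 16.8 TPM in ΔK9.2 and at 17.1, 9.83 and 12.5 TPM in E14Tg2a. The clones did not overlap each other and both overlapped E14Tg2a. The difference of ΔK9.2 from ΔK9.1 was 1.05 (standard error 0.25, limma adjusted p = 0.0632) and was not called, where 1.9% of genes were, and with the replicate block it was called (limma adjusted p = 0.00411), as were *Dazl* (0.93, adjusted p = 0.0146) and *Nanos3* (0.58, adjusted p = 0.0471), where 10.7% of all genes were called under the block. *Mael* was also called after scaling by the median ratio (1.07, limma adjusted p = 0.0485). *Ifitm1* was higher in all 6 clone libraries than in all 3 of E14Tg2a, which held in either direction for 7.92% of all genes. It was at 847, 801 and 720.4 TPM in ΔK9.1 and at 736, 883 and 990.0 TPM in ΔK9.2, against 553, 698 and 634 TPM. The mean of the clones was 0.40 above E14Tg2a (standard error 0.11, limma adjusted p = 0.0563), not called where 5.41% of genes were. With the replicate block it was called (limma adjusted p = 0.0348), together with *Prdm1* (0.40, adjusted p = 0.0489), *Tfap2c* (0.37, adjusted p = 0.0193) and *Nanos3* (-0.52, adjusted p = 0.0366), which gives 4 of 10 where 13.5% of all genes were called under the block. *Ifitm1* was also called with a minimum of 5 TPM (0.40, limma adjusted p = 0.0456) and without replicate 1 of ΔK9.2 (0.46, limma adjusted p = 0.0344).

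On days 4 and 6 the mean of both clones against wild type gave 0 calls by limma among the 10 genes, where 0.796% and 1.62% of all genes were called. At an unadjusted p under 0.05 there were 2 on day 4, *Prdm1* (0.52, standard error 0.23) and *Tfap2c* (0.57, standard error 0.24), and 0 on day 6, beside 15.5% and 17% of all genes. *Ddx4* on day 4 was lower in all 6 clone libraries, with 9.36, 8.68 and 10.9 TPM for ΔK9.1 and 9.94, 9.71 and 8.46 TPM for ΔK9.2 against 10.998 to 13.4 TPM (-0.36, standard error 0.18, limma adjusted p = 0.329). Non-overlap on day 4 held for 7.58% of all genes. *Nanos3* on day 4 was at 0.783, 1.28 and 1.30 TPM in ΔK9.1, above the 0.129 to 0.768 TPM of the other 6 libraries (0.69 for ΔK9.1 against E14Tg2a, limma adjusted p = 0.285).

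Whether the change from day 0 to day 8 differs between the clones and E14Tg2a was tested directly as an interaction. Limma called 0 of the 10 genes past a difference of 1, where 3.05% of all genes were called, and 2 had an unadjusted p under 0.05, *Dnd1* and *Ifitm1*, beside 22.2% of all genes. *Dnd1* differed by 0.70 (standard error 0.20, adjusted p = 0.0408) and *Ifitm1* by 0.76 (standard error 0.33, adjusted p = 0.169). With the replicate block the limma adjusted p was 0.0064 for *Dnd1* and 0.011 for *Ifitm1*, and neither passed a difference of 1. Without replicate 1 of E14Tg2a on day 8, the highest of its 3 libraries, *Ifitm1* differed by 1.06 (limma adjusted p = 0.0434) and was called. Between the clones on day 8 limma called 0 of the 10 genes and 0% of all genes, and 1 of the 10, *Ddx4* (ΔK9.2 against ΔK9.1 -0.45, standard error 0.21), had an unadjusted p under 0.05, beside 6.06% of all genes. The day 8 mean of the clones lay between the E14Tg2a means of days 6 and 8 for 5 of the 10 genes (*Kit*, *Nanos3*, *Dazl*, *Ddx4* and *Mael*), where it did for 52.3% of all listed genes.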

How the data were processed

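Per the labels and methods, the authors used STAR (mm10) and RSEM on strand-specific, paired-end, poly-A enriched libraries, and deposited TPM for 16336 genes. No listed gene has all 12 group means below 1 TPM. Outliers of a PCA were omitted by the authors, and whether this touched day 6 is not stated. Tool versions and the annotation are not given in the sources used here. The table also holds the authors' own DESeq2 fold changes and FDR values, which were not used. No counts were used here, so no interval for counting error is given.

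Genes were matched by exact symbol and the 33 library columns by sample title. limma 3.58.1 (R 4.3.3) was run on log2(TPM + 1) with its trend option, and p-values were adjusted by Benjamini-Hochberg over every gene tested. Day 0 was fitted on its 9 libraries, with genes of at least 1 TPM in a group mean, and all else on 33 libraries. Calls needed an adjusted p under 0.05 and a log2 fold change above 0.3 on day 0 between lines or above 1 elsewhere. The fit was tested on simulated data. Figures and sequence searches used Python 3.11.15.

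The study describes independent assays with the lines differentiated side by side, and libraries of 1 number and day were taken as paired on that basis. Their deviations from the group means had a median correlation of 0.222 over 33 pairs of different lines (31 above 0.1, lowest -0.0129), against -0.127 over 60 pairs of different numbers. Deviations within a group sum to 0, so a positive value for equal numbers forces a negative one for different numbers. The -0.127 is therefore no separate evidence of pairing. The fits are unpaired. Blocked values are given where they change a call, and for some genes not called on day 8 or in the interaction.

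The 10 genes and all lists were chosen with earlier results of these data known. Other genes are named by rule: the 2 genes most correlated with each of the 10 over the 12 group means (at least 5 TPM in a group), and up to 4 genes per list with the largest change among those called on day 8. *E2f6*, *Mga*, *Dnmt1*, *Setdb1*, *Trim28*, *Dnmt3a*, *Ifitm2*, *Tdrd5* and *Tdrkh* fall outside this rule and were chosen after their values were seen. Alternatives tried were a minimum of 5 TPM, a pseudocount of 0.1, scaling by the median ratio, the replicate block, a fit on the compared groups alone (for day 0, on all libraries) and each library left out in turn.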

Additional observations from a re-analysis of the deposited data

Results flagged for a closer look

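For *Dnd1* the change over 8 days differed between the clones and wild type with an adjusted p under the threshold of the interaction test, but by less than the fold threshold, so it was not called. The difference was 0.70 on the log2 scale for the mean of both clones (standard error 0.20, limma adjusted p = 0.0408), where E14Tg2a was at -1.46, ΔK9.1 at -0.86 and ΔK9.2 at -0.67. On day 0 the 3 lines overlapped. With the replicate block the limma adjusted p was 0.0064, and with only the libraries of days 0 and 8 in the fit it was 0.0893. It stayed under a difference of 1 in each of these fits.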

How the results depend on the processing

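The count of the 10 genes called in ΔK9.1 against E14Tg2a on day 0 (1) was 0 after scaling by the median ratio, 0 with all libraries in the fit and 4 with the replicate block, and it ranged from 0 to 1 when 1 library was left out. The genes counted there were *Nanos3* without replicate 1 of E14Tg2a and *Mael* without replicate 1 of ΔK9.1. On day 8 the count for the mean of the clones (1) ranged from 0 to 1 over left-out libraries, and so did the count of the interaction (0). The cause was not tested. The counts of genes called on a later day stayed within 1.5 times in all fits (8 to 10 in E14Tg2a, 5 to 7 in ΔK9.1 and 8 to 9 in ΔK9.2). Over all genes the 693 called on day 8 became 1155 with a pseudocount of 0.1 and 334 with only the day 8 libraries in the fit, the 499 of the interaction became 792 with the block and 269 with only its own groups, and the 2153 of ΔK9.1 on day 0 became 3672 with the block. Of 2946 alternative values of single genes, 0 reversed a call, 79 lost one, 61 gained one, and 114 changed sign where neither value was called. Besides the calls named above, the replicate block ended the call of *Ddx4* on day 8 against day 6 in ΔK9.1 (-0.94), and of *Tfap2c* on day 6 against day 4 in ΔK9.2 (-0.96), and it changed no call between lines on days 4, 6 and 8. *Nanos3* and *Dazl* on day 8 could not be fitted with only the day 8 libraries, since they fell under 1 TPM. TPM give no depth, so values near 1 TPM rest on the spread between replicates alone.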
